A study of Mus musculus with 6 samples.

Results

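Hmgcs1, Sqle, Idi1, Fdps, Fdft1, Lss, Cyp51 and Insig1 were followed in RNA from the adipocyte fraction of mouse fat, in the presence and absence of adipocyte PU.1. The 8 genes were chosen by name, for their place in cholesterol metabolism, and each matched 1 of the 35122 genes in the count table. The first 7 of them encode enzymes of cholesterol synthesis and Insig1 encodes a regulator of that pathway. None encodes a protein of LDL uptake, so that genes of LDL uptake are described below from a separate list. The samples came from male C57BL/6 mice on chow, aged 10 to 11 months by their labels, in 2 groups of 3 mice with 1 library each. Control mice (PU.1 fl/fl) carried Spi1, the gene encoding PU.1, with 1 exon flanked by loxP sites but present. The aPU.1KO mice (AdipoqCre_PU.1 fl/fl) were littermates that carried the same floxed alleles and a Cre transgene driven by the adiponectin promoter, which is active in adipocytes, so that other cells in the fraction kept an intact gene. Epididymal fat pads were digested with collagenase and the floating layer was taken, and each group's mice carry the numbers 1 to 3 by label order.

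Cholesterol is built from acetyl-CoA. Hmgcs1 makes HMG-CoA, which is reduced to mevalonate, and Idi1 and Fdps turn mevalonate-derived units into farnesyl diphosphate, from which isoprenoids and ubiquinone also branch. Fdft1 (squalene synthase) makes the first step committed to sterols, Sqle oxidizes squalene, Lss closes the ring to lanosterol, and Cyp51 removes a methyl group from lanosterol on the way to cholesterol. When sterols are scarce in the endoplasmic reticulum, Scap carries the transcription factor SREBP2 (gene Srebf2) to the Golgi for cleavage, and the cleaved factor drives these genes. When sterols are plentiful, Insig1 and Insig2 hold Scap back. Insig1 is itself a target of the factor. Adipocytes store much free cholesterol in their lipid droplets and, in textbook accounts, take up much of it from lipoproteins.

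The promoter sequences are shown because SREBP2 acts through short elements close to the start of its targets, usually beside boxes for the factor NF-Y. Promoter windows from RefSeq (GRCm38.p6, 250 bases before to 50 after the start) were found for 5 of the 8 genes, namely Hmgcs1, Idi1, Lss, Cyp51 and Insig1. The windows were searched on both strands. Each motif was a fixed string of letters (N is any base), so variant forms of an element were not sought. The sterol regulatory element TCACNCCAC was found in Hmgcs1 alone of the 5, with its first base 137 bases before the start, and it occurs in 1.24% of all 32851 windows. The NF-Y box CCAAT was found in all 5 windows and in 37.4% of all windows. The Sp1 box GGGCGG was also found in all 5, against 35.7% of all windows. The E box CACGTG was found in Insig1 alone, against 7.15%. The PU.1 core GAGGAA was in 0 of the 5, against 28.3% of all windows. No match of one motif overlapped that of another in these 5 windows, and the E box reads the same on both strands. A match is a description of letters and not a site of binding. The 3 stretches below run 5′ to 3′ and end before the first annotated exon, and capitals mark the sterol element, the NF-Y boxes (CCAAT, or ATTGG on the other strand) and the E box.
Hmgcs1, chr13:119690101-119690350, + strand: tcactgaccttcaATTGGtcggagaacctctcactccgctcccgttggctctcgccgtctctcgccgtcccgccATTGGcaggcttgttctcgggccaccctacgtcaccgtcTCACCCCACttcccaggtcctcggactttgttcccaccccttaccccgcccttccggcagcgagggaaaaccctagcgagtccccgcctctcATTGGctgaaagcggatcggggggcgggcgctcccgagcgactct
Insig1, chr5:28071162-28071362, + strand: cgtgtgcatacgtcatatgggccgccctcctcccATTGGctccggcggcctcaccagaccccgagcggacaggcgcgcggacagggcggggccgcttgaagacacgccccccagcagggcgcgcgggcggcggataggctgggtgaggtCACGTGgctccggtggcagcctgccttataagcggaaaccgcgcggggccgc
Lss, chr10:76531355-76531587, + strand: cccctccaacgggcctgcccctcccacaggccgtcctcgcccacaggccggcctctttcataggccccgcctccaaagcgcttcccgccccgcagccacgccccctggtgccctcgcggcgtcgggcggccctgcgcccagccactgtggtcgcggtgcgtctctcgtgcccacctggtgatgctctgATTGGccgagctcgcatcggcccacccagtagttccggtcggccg
In Hmgcs1 the sterol element lay between NF-Y boxes that began 176 and 45 bases before the start. Insig1 had its NF-Y box 216 and its E box 101 bases before the start, and Lss had its NF-Y box 62 bases before it. The NF-Y boxes of Idi1 (45 and 14 bases before the start) and Cyp51 (29 bases before) fell in bases that the GENCODE M21 annotation places in an exon and are not printed.

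Library totals were between 20550252 and 69283842 estimated counts, and control mouse 1 was by far the deepest. Levels are given as CPM, a gene's count relative to the size of its library after scaling by TMM factors. Spi1 was counted at 24.3, 6.35 and 26.7 CPM in control mice 1, 2 and 3 and at 3.20, 1.22 and 4.17 CPM in aPU.1KO mice 1, 2 and 3. It was lower in every aPU.1KO mouse, with a log2 fold change of -2.75 (SE 0.64, edgeR adjusted p = 0.0788, DESeq2 adjusted p = 7.47e-05). Control mouse 2 stood nearer to the aPU.1KO mice than the other control mice did. Macrophages also express Spi1, and the summed level of 12 macrophage markers was 1509, 436.0 and 1476 CPM in the control mice and between 213.0 and 307.0 CPM in the aPU.1KO mice, with 10 of the 12 lower without overlap. The 9 adipocyte markers summed to between 25505 and 27836 CPM in control and between 31001 and 37001 CPM in aPU.1KO mice, with 7 higher and 1 lower without overlap, so that the labelled cell type was well represented in every library. The progenitor and fibroblast list summed to 1731 to 2230 CPM against 926.0 to 1445 CPM, and the hepatocyte list to 41.4 to 65.4 CPM against 19.0 to 25.0 CPM, with all 9 hepatocyte genes lower. Over all genes tested, 16.7% were higher and 15.5% lower without overlap. The part of these marker shifts in the results below was not tested. In bulk RNA, fewer cells of a type and less RNA per cell cannot be told apart.

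With all mice included, the 8 genes showed no shared direction between the groups. There were 4 with a positive and 4 with a negative log2 fold change (aPU.1KO over control), between -0.35 for Sqle and 0.69 for Fdft1, and the median was 0.01, as it was over all 13925 genes tested. None of the 8 passed an adjusted p of 0.05 in edgeR's quasi-likelihood test, which called 0.237% of all genes. At an unadjusted p under 0.05, 1 gene was higher (Fdft1) and 1 was lower (Sqle), where the test gave 11.9% of all genes as higher and 13.7% as lower. The groups did not overlap in 1 gene that was higher and in 2 that were lower (Sqle and Hmgcs1), where 16.7% and 15.5% of all genes separated in these directions. DESeq2, the tool named in the study's methods, called 1 of the 8, Fdft1, as higher, where it called 3.69% of the 16280 genes that it tested as higher. It called 0 of the 8 as lower, where it called 7.78% of all.

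**Figure D1:**
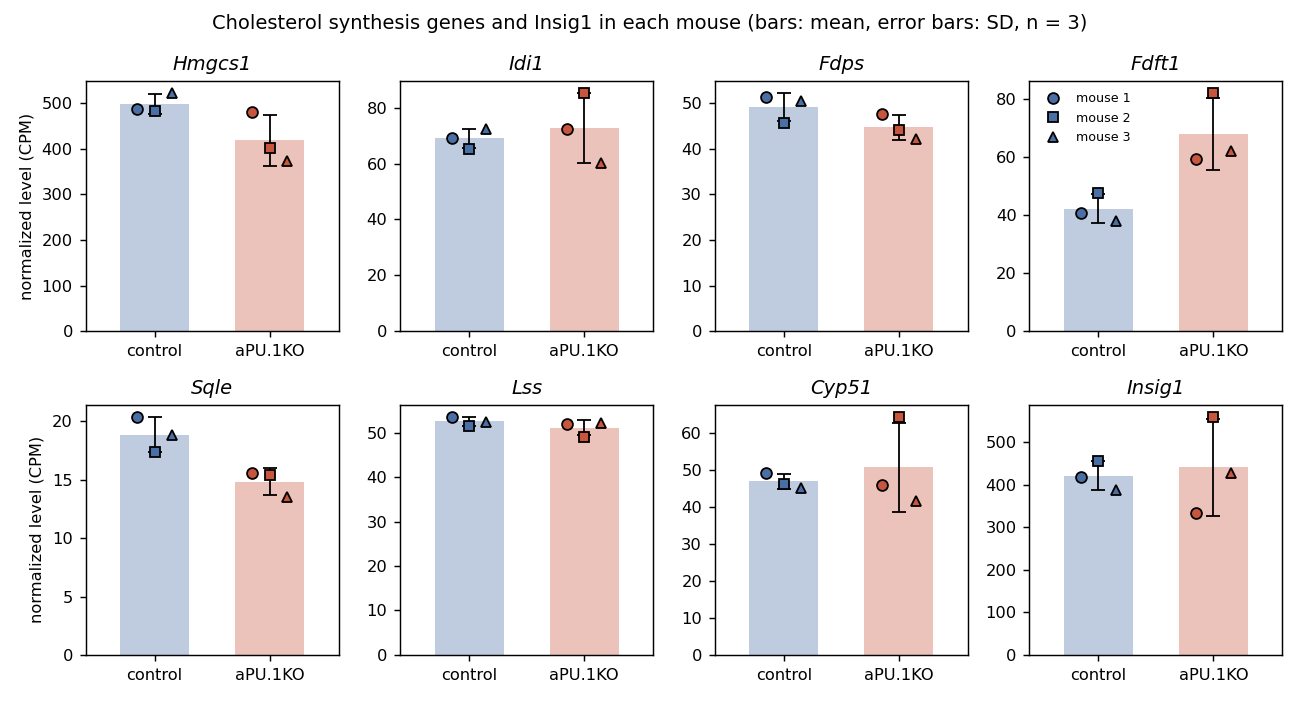
Normalized level (CPM, y axis from 0) of each of the 8 genes in every mouse. Bars are group means and error bars the SD of 3 mice; Fdft1 is higher in all aPU.1KO mice, Sqle and Hmgcs1 are lower in all of them, and the groups overlap in the other 5 genes.

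Fdft1 (ENSMUSG00000021273; chromosome 14, 63145150 to 63179578, minus strand, GRCm38), squalene synthase, had the largest log2 fold change of the 8 genes. It was counted at 40.7, 47.7 and 38.1 CPM in control mice and at 59.5, 82.1 and 62.0 CPM in aPU.1KO mice. The lowest aPU.1KO mouse lay above the highest control mouse, and aPU.1KO mouse 2 was the highest of all. The means were 42.2 ± 4.96 CPM (SD, n = 3) and 67.9 ± 12.4 CPM, a log2 fold change of 0.69 (SE 0.15, 95% interval 0.33 to 1.04). The edgeR adjusted p was 0.0783 and the DESeq2 adjusted p was 0.00274. When single mice were left out, the log2 fold change of Fdft1 lay between 0.53, without aPU.1KO mouse 2, and 0.77, without control mouse 2, where the edgeR adjusted p was 0.0364. Over all alternatives the adjusted p of Fdft1 reached 0.313, without control mouse 1.

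The 3′ part of Fdft1 shares 774 bp of exon with Ctsb, the gene of the lysosomal protease cathepsin B, which lies on the opposite strand. Whether the libraries kept strand is not given in the sources used here, and Ctsb held 463473 counts over the 6 libraries against 9305 for Fdft1. Ctsb was counted at 2896, 2076 and 2988 CPM in control mice and at 2234, 1847 and 2160 CPM in aPU.1KO mice. The groups overlapped, and the log2 fold change of Ctsb was -0.35 (SE 0.18, edgeR adjusted p = 0.26), opposite in sign to that of Fdft1. The share of Fdft1 counts that came from this stretch cannot be read from counts per gene and was not tested.

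Because the value of Fdft1 differed from that of its neighbours in the pathway, it was also set against them within each library, which removes scaling between libraries. The log2 ratio of Fdft1 to the geometric mean of the other 7 genes was -1.10, -0.80 and -1.16 in control mice and -0.42, -0.10 and -0.25 in aPU.1KO mice. The ratio was higher in every aPU.1KO mouse, by 0.76 on average, with within-group SDs of 0.19 and 0.16. Against Fdps, the enzyme just before it, the log2 ratio of Fdft1 averaged -0.23 in control and 0.59 in aPU.1KO mice, and against Sqle, the enzyme just after it, 1.16 and 2.18. The log2 ratio of Sqle to Fdps was lower in every aPU.1KO mouse, with means of -1.38 and -1.59. Of 7 such ratios, 6 separated the groups. All were chosen after the values of their genes were seen, so they describe the same separation in another form and are given without a test.

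**Figure D2:**
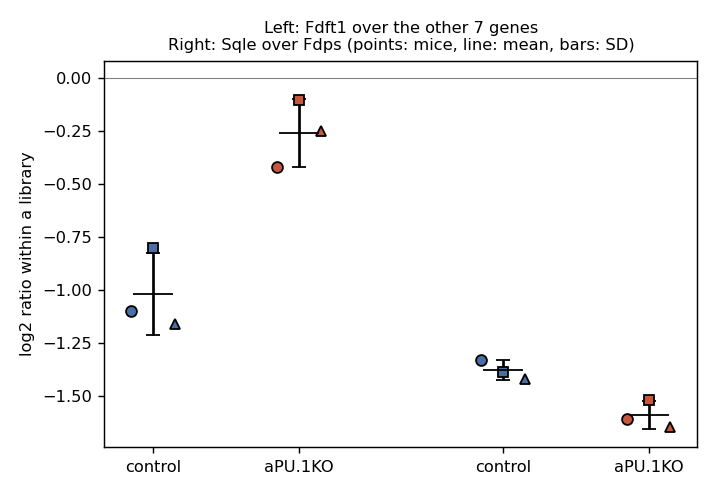
Log2 ratio within each library (y axis) of Fdft1 to the geometric mean of the other 7 genes (left) and of Sqle to Fdps (right), with the mean and SD of 3 mice per group. The Fdft1 ratio is -1.02 on average in control and -0.26 in aPU.1KO mice, and the Sqle ratio -1.38 and -1.59.

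Sqle (ENSMUSG00000022351; chromosome 15, 59315077 to 59331192, plus strand), squalene epoxidase and a rate-limiting enzyme of the sterol branch, was the member with the most negative value. It was counted at 20.4, 17.4 and 18.8 CPM in control mice and at 15.6, 15.4 and 13.5 CPM in aPU.1KO mice. All 3 aPU.1KO values were under the lowest control value. The means were 18.9 ± 1.49 and 14.8 ± 1.16 CPM (SD, n = 3), a log2 fold change of -0.35 (SE 0.11, 95% interval -0.61 to -0.09). This had an unadjusted p of 0.0158 in edgeR's test across all genes, an adjusted p of 0.116, and an adjusted p of 0.0641 in DESeq2. Leaving out each mouse moved the log2 fold change of Sqle between -0.41 and -0.28. Fdft1 and Sqle, which act on successive steps, therefore had values of opposite sign.

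Hmgcs1 (ENSMUSG00000093930; chromosome 13, 119690379 to 119708260, plus strand), cytosolic HMG-CoA synthase, was the gene with the sterol element printed above. It was counted at 487.1, 482.4 and 522.0 CPM in control mice and at 481.3, 400.9 and 373.3 CPM in aPU.1KO mice. The groups touched without overlapping, since aPU.1KO mouse 1 lay just under control mouse 2. The log2 fold change was -0.25 (SE 0.12, 95% interval -0.52 to 0.03, edgeR adjusted p = 0.233).

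The other 5 genes overlapped between the groups. Fdps (ENSMUSG00000059743; chromosome 3, 89093588 to 89101959, minus strand), farnesyl diphosphate synthase, was counted at 51.4, 45.6 and 50.4 CPM in control and at 47.7, 44.1 and 42.2 CPM in aPU.1KO mice. Only aPU.1KO mouse 1 lay within the control range, and the log2 fold change was -0.14 (SE 0.08, 95% interval -0.34 to 0.06). Lss (ENSMUSG00000033105; chromosome 10, 76531588 to 76557138, plus strand), lanosterol synthase, was the most even of the 8, at 53.6, 51.6 and 52.4 CPM in control and 52.0, 49.1 and 52.1 CPM in aPU.1KO mice. Its log2 fold change was -0.04 with a 95% interval of -0.20 to 0.11, the narrowest of the 8.

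Idi1 (ENSMUSG00000058258; chromosome 13, 8885501 to 8892451, plus strand), isopentenyl diphosphate isomerase, was counted at 69.2, 65.4 and 72.4 CPM in control and at 72.3, 85.3 and 60.3 CPM in aPU.1KO mice. Both the highest and the lowest value were in aPU.1KO mice, and the log2 fold change was 0.07 (SE 0.13, 95% interval -0.23 to 0.38). Cyp51 (ENSMUSG00000001467; chromosome 5, 4081145 to 4104746, minus strand), lanosterol demethylase, was counted at 49.3, 46.3 and 45.3 CPM in control and at 46.1, 64.5 and 41.7 CPM in aPU.1KO mice. Mouse 2 again stood above all others, and the log2 fold change was 0.11 (SE 0.16, 95% interval -0.27 to 0.50).

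Insig1 (ENSMUSG00000045294; chromosome 5, 28071363 to 28078662, plus strand), the sterol-dependent brake on Scap, spread most among the aPU.1KO mice. It was counted at 418.8, 455.3 and 387.7 CPM in control and at 334.1, 559.4 and 426.7 CPM in aPU.1KO mice. The aPU.1KO mice held both the lowest and the highest of the 6 values, and the log2 fold change was 0.07 (SE 0.19, 95% interval -0.38 to 0.51). Without aPU.1KO mouse 2 the log2 fold changes of Insig1, Cyp51 and Idi1 turned to -0.15, -0.10 and -0.06, and the median of the 8 genes was -0.12. Fdft1, at 0.53, was then the only one of the 8 with a positive value.

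The SD of log2 CPM was larger in aPU.1KO mice for 7 of the 8 genes, where it was larger for 66.3% of all genes tested, and the median SD over all genes was 0.20 in aPU.1KO and 0.13 in control mice. The coefficient of variation of Insig1 was 8.05% in control and 25.7% in aPU.1KO mice, that of Cyp51 4.39% and 23.9%, and that of Idi1 5.09% and 17.2%. Fdps, at 6.36% and 6.16%, and Sqle, at 7.92% and 7.84%, varied about as much in both groups. Of the 3 aPU.1KO mice, mouse 2 was the highest in 4 of the 8 genes, where it was the highest in 40.4% of all genes. A list of 8 genes that respond to tissue dissociation (Fos, Jun and others) summed to 3705, 5769 and 2022 CPM in aPU.1KO mice 1, 2 and 3, with mouse 2 highest and mouse 3 lowest, and to between 2558 and 3153 CPM in control mice. The part of this response in the spread of Idi1 and Cyp51, which had the same order of mice, was not tested.

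Per length, Insig1 and Hmgcs1 were the most abundant of the 8 and Sqle the least. In control mice the level per kb of the main transcript was 156.0 ± 12.5 CPM per kb (SD, n = 3) for Insig1 and 144.0 ± 6.26 for Hmgcs1, and the ranges of these 2 genes overlapped. Insig1 stood above 97.3% and Hmgcs1 above 97.0% of the 13620 genes compared. Fdps followed at 35.5 ± 2.26 and Idi1 at 22.8 ± 1.16 CPM per kb, each apart from its neighbours. Cyp51 (12.0 ± 0.524), Fdft1 (11.4 ± 1.34) and Lss (11.3 ± 0.219) were not ordered. The range of Fdft1 (10.3 to 12.9) held those of Cyp51 and Lss. The lowest Cyp51 value and the highest Lss value were both 11.5 as rounded. Sqle, at 6.84 ± 0.542 CPM per kb, was below them all and close to the middle of all genes, above 50.4% of them. In aPU.1KO mice the order was the same except that Fdft1, at 18.4 ± 3.35 CPM per kb, had a higher mean than Cyp51 at 12.9 ± 3.08. The range of Fdft1 there (16.1 to 22.2) overlapped that of Idi1 (19.9 to 28.2) and that of Cyp51 (10.6 to 16.4).

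**Figure D3:**
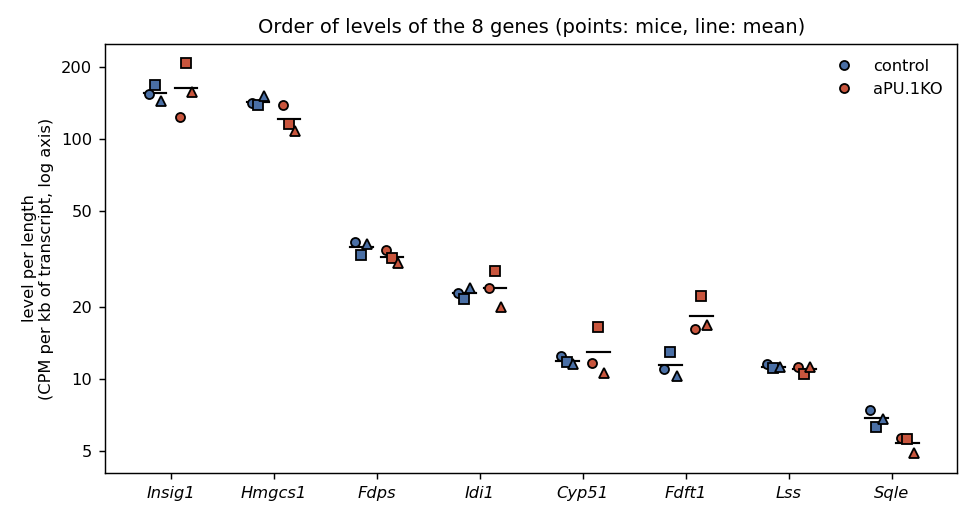
Level per length (CPM per kb of the main transcript, log axis) of the 8 genes in each mouse, in the order of the control means, with points for mice and a line at each group mean. Insig1 and Hmgcs1 lie between 108 and 207 CPM per kb and Sqle between 4.89 and 7.40 CPM per kb.

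In the remaining enzymes of the pathway, a list of 15 genes, 2 had a higher and 4 a lower level at an unadjusted p under 0.05, against 11.9% and 13.7% of all genes. In edgeR 0 passed an adjusted p of 0.05, the log2 fold changes ran from -0.69 to 0.47, and the median was -0.14. The 4 genes named here had among the lowest p-values of the list. DESeq2 called 1 higher and 2 lower, against 3.69% and 7.78% of all genes. Acat1 was listed for the acetoacetyl-CoA step, but it encodes a mitochondrial thiolase of ketone body and isoleucine breakdown. Its log2 fold change was 0.39 (SE 0.11, edgeR adjusted p = 0.0992), and it was the gene that DESeq2 called higher (adjusted p = 0.0265). Pmvk, phosphomevalonate kinase, had 0.47 (SE 0.16, edgeR adjusted p = 0.135). Dhcr7, which reduces 7-dehydrocholesterol to cholesterol, was counted at 23.4, 17.9 and 24.0 CPM in control and at 13.7, 11.5 and 16.0 CPM in aPU.1KO mice, a log2 fold change of -0.67 (SE 0.17, edgeR adjusted p = 0.0873). Lbr, a sterol reductase that also tethers chromatin at the nuclear envelope, had -0.50 (SE 0.18, adjusted p = 0.141). Acat1, Pmvk, Dhcr7 and Lbr each separated the groups without overlap. Of the 15 genes, 2 were higher and 4 lower without overlap, where 16.7% and 15.5% of all genes were.

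**Figure D4:**
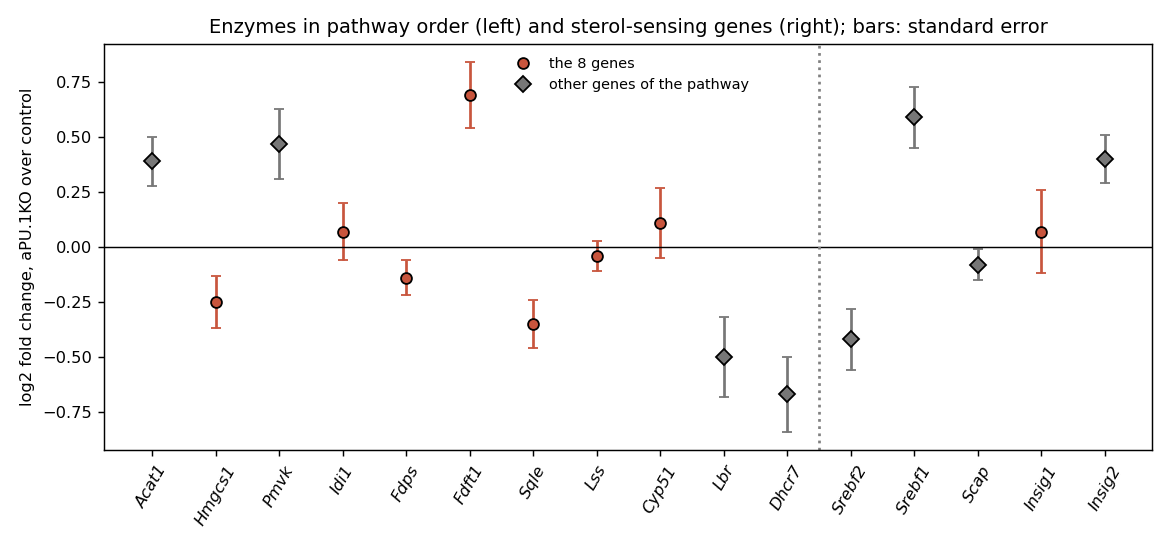
Log2 fold change (aPU.1KO over control, edgeR) with its standard error for enzymes in pathway order (left of the dotted line) and for genes of sterol sensing (right). Acat1, at the far left, encodes a mitochondrial thiolase. Circles are the 8 genes and diamonds the other named genes; Fdft1 stands at 0.69 between Fdps at -0.14 and Sqle at -0.35, and Dhcr7 lies at -0.67.

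The genes of sterol sensing and SREBP processing, 9 in all, had a median of 0.10, and at an unadjusted p under 0.05 there were 2 higher and 1 lower, against 11.9% and 13.7% of all genes. In edgeR 0 passed an adjusted p of 0.05, and DESeq2 called 2 higher, Srebf1 and Insig2, against 3.69% of all genes. Srebf2, the gene of SREBP2, was counted at 43.1, 34.8 and 41.3 CPM in control and at 27.6, 35.3 and 26.5 CPM in aPU.1KO mice. The groups overlapped through aPU.1KO mouse 2, and the log2 fold change was -0.42 (SE 0.14, edgeR adjusted p = 0.132). Srebf1, whose product SREBP1c drives fatty acid synthesis, was counted at 251.5, 288.1 and 255.2 CPM and at 349.6, 481.0 and 363.7 CPM. It was higher in every aPU.1KO mouse, with a log2 fold change of 0.59 (SE 0.14, edgeR adjusted p = 0.083, DESeq2 adjusted p = 0.00573). The log2 ratio of Srebf1 to Srebf2 within a library averaged 2.74 in control and 3.74 in aPU.1KO mice, without overlap, one of the 7 ratios above. Scap, at -0.08 (SE 0.07), stayed within the control range in 1 aPU.1KO mouse. Insig2 was counted at 82.6, 93.2 and 80.8 CPM in control and at 121.6, 98.8 and 117.7 CPM in aPU.1KO mice, a log2 fold change of 0.40 (SE 0.11, edgeR adjusted p = 0.0934, DESeq2 adjusted p = 0.0386). The log2 ratio of Insig2 to Insig1 differed by 0.36 between the group means with overlap.

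For LDL uptake and lysosomal delivery, 8 of the 9 genes listed were tested, and 7 of the 8 had a negative value. At an unadjusted p under 0.05 there were 5 lower and 0 higher, where 13.7% of all genes were lower and 11.9% higher. In edgeR 0 passed an adjusted p of 0.05, DESeq2 called 3 lower, against 7.78% of all genes, and the median was -0.36. Lipa, the lysosomal acid lipase that frees cholesterol from lipoprotein esters, was counted at 291.8, 105.8 and 270.2 CPM in control and at 97.4, 64.2 and 89.3 CPM in aPU.1KO mice. Control mouse 2 lay close to the aPU.1KO mice, as it did for the macrophage markers, and the log2 fold change was -1.41 (SE 0.38, adjusted p = 0.0942). Dab2, a clathrin adaptor for lipoprotein receptors, was counted at 59.5, 39.2 and 47.4 CPM and at 20.4, 24.6 and 24.6 CPM, a log2 fold change of -1.07 (SE 0.17, edgeR adjusted p = 0.0718). Lrp1, a large endocytic receptor of the LDL receptor family, had -0.58 (SE 0.15, adjusted p = 0.0892), and Npc1, which exports cholesterol from lysosomes, -0.38 (SE 0.12, adjusted p = 0.118). Macrophages express several of these genes too, and the part of the lower macrophage marker sum in their values was not tested.

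Among 4 other genes that sterols regulate, Aacs, a cytosolic acetoacetyl-CoA synthetase that feeds ketone-derived carbon into lipid synthesis, was higher at 0.91 (SE 0.27, edgeR adjusted p = 0.109), without overlap. Tmem97, the sigma-2 receptor, was lower at -0.40 (SE 0.13, adjusted p = 0.123), without overlap. In this list 1 gene was higher and 1 lower without overlap, where 16.7% and 15.5% of all genes were. Stard4, a sterol carrier, was at 16.0, 15.9 and 14.8 CPM in control and at 6.91, 15.4 and 14.5 CPM in aPU.1KO mice, so that its log2 fold change of -0.34 (SE 0.28) rested on aPU.1KO mouse 1. Rdh11, a retinal reductase, had 0.05 (SE 0.12). In the isoprenoid branches that leave the pathway at farnesyl diphosphate, the median of 9 genes was 0.09. At an unadjusted p under 0.05, 2 of the 9 were higher and 1 was lower, where 11.9% and 13.7% of all genes were. In edgeR or DESeq2, 0 passed an adjusted p of 0.05. Pdss1 and Coq2 of ubiquinone synthesis had 0.54 (SE 0.19) and 0.21 (SE 0.09), Fnta, a subunit of protein prenyltransferases, 0.20 (SE 0.08), Nus1, for the lipid carrier dolichol, -0.30 (SE 0.09), and Pggt1b -0.27 (SE 0.16).

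The fatty acid synthesis genes, which share acetyl-CoA with the cholesterol pathway and answer mainly to SREBP1c, were listed for comparison. At an unadjusted p under 0.05 there were 6 of 10 higher and 0 lower, where 11.9% of all genes were higher and 13.7% lower. In edgeR 0 passed an adjusted p of 0.05, and DESeq2 called 4 higher, against 3.69% of all genes. The log2 fold changes ran from -0.11 to 1.28, with a median of 0.67 against 0.01 for the 8 genes. Those with the lowest p-values are named here. Acly, Thrsp and Acaca had log2 fold changes of 1.28 (SE 0.26), 1.18 (SE 0.28) and 1.17 (SE 0.35), Acss2 0.76 (SE 0.28) and Elovl6 0.58 (SE 0.21). Whether the lists differ was not tested. Exons of Srebf1, Acss2, Lbr, Npc1 and Pdss1 share 100 bp or more with a protein-coding gene on the opposite strand, of which Rmc1 and Abi1 held counts near or above those of Npc1 and Pdss1.

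**Figure D5:**
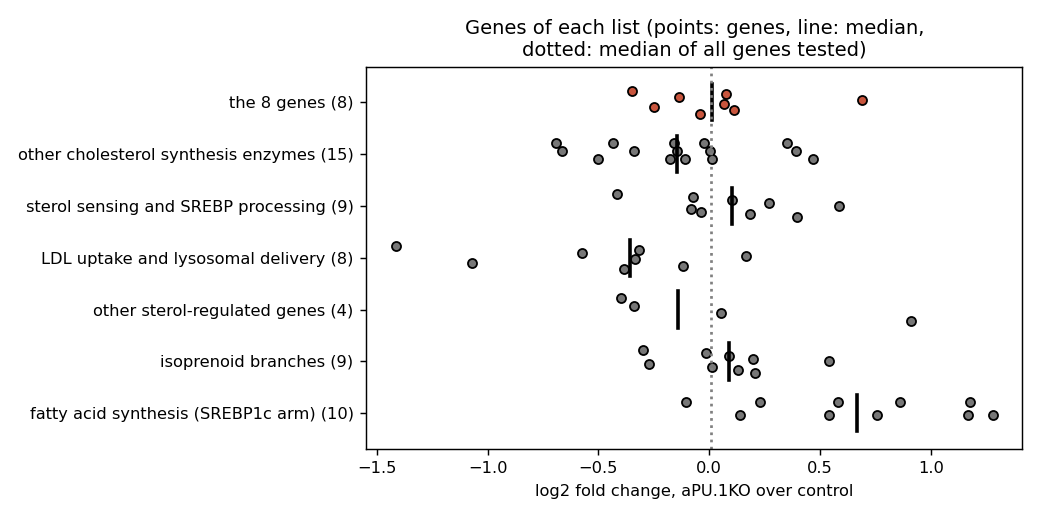
Log2 fold change (aPU.1KO over control, x axis) of every tested gene of the 8 genes and of 6 lists, with the number tested in parentheses and a line at each median. The dotted line is the median of all genes tested (0.01); the medians run from -0.36 for LDL uptake to 0.67 for fatty acid synthesis.

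The genes outside these lists whose pattern over the 6 libraries was nearest to the mean of the 8 were Hnrnph2, Mbd2, Ccdc12, Ing3, Ykt6, Ctdnep1, Ppp4r3a and Setdb1, among 9494 genes with an average log2 CPM of at least 3. Likeness was the root mean square difference of centred log2 CPM, between 0.008 for Hnrnph2 and 0.030 for Setdb1. The mean pattern of the 8 was itself almost flat, at 0.02, -0.02 and -0.02 in control mice and -0.02, 0.16 and -0.12 in aPU.1KO mice, and a wholly flat pattern lay at 0.082. Of the 8 genes, Idi1 was nearest to their mean, at 0.09, and Fdft1 farthest, at 0.36.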

How the data were processed

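A single RNA library per mouse came from the adipocyte fraction of 3 mice of each genotype. The authors deposited estimated counts per gene, made with Salmon (option validateMappings) by summing transcript counts. They are whole numbers and were used without rounding. The submitters' processing notes name GRCm38, Salmon and FastQC. The Salmon version, the annotation and the strandedness are not given in the sources used here. The table lists 35122 genes, of which 35031 matched a symbol in GENCODE M21. The unmatched genes held 0.0367% of counts. Coordinates are from that annotation. Labels do not say whether libraries share a litter or a day, so p-values measure the spread between these mice. The paper gives an age of more than 1 year where the labels give 10 to 11 months. Library totals ran from 20550252 to 69283842, and the lowest count of any of the 8 genes in a library was 285.

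The groups were compared over the whole table with edgeR 4.0.16 under R 4.3.3 (filterByExpr, with TMM factors of 0.911 to 1.079, glmQLFit and glmQLFTest with defaults, Benjamini-Hochberg adjustment over 13925 genes). The common biological coefficient of variation was 0.194. Alternatives were RLE and upper quartile scaling, at least 10 counts in every library, no filter, DESeq2 1.42.0 on all genes, limma-voom (limma 3.58.1), robust dispersion, legacy = FALSE, leaving out each mouse, and, added after the data were seen, a block of mice with neighbouring label numbers. The scripts were tested on simulated data. Log2 CPM for spread and likeness used a prior count of 2. Levels per length used the main transcript. Shared sequence was sought with BLAST 2.17.0 (at least 95% identity over 100 bp). Figures used Python 3.11.15 and matplotlib 3.10.9.

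The members and lists were chosen with earlier results of these data known, so lists are described and not tested. Genes named are the 8, Spi1, Srebf1, Srebf2, Scap, Insig2, up to 5 genes of each other list with the lowest p, and the 8 nearest in pattern. Ctsb, which overlaps Fdft1, was added after its values were seen. Some genes that this rule selects are not reported by name here, though they are in the list counts.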

Additional observations from a re-analysis of the deposited data

How the results depend on the processing

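The labels give the groups no shared replicate numbers and do not say which mice were littermates of each other. A replicate block that pairs each control mouse with the aPU.1KO mouse of the nearest label number (mouse 1 with 1, 2 with 2, 3 with 3) was added after the data were seen. Deviations from the group means correlated at 0.13, 0.18 and 0.08 in these pairs. In the other combinations of a control and an aPU.1KO mouse they correlated at -0.16 to 0.12. The highest of these was control mouse 3 with aPU.1KO mouse 1, above its own pair. The pairs thus tended to higher values, but the labels state no pairing, so the fit without the block was kept as the main one. With the block edgeR called 480 genes (92 higher, 388 lower), 32 of them among the 33, and 1 of the 8 genes, Fdft1 (0.68, adjusted p = 0.0288). It called Spi1 (-2.68, adjusted p = 0.00531) as lower. In the lists it called 3 of 10 fatty acid synthesis genes and 1 of 4 other sterol-regulated genes as higher. It called 2 of 8 genes of LDL uptake and 1 of 15 other cholesterol synthesis enzymes as lower. Over all 13925 genes tested it called 92 higher and 388 lower. Under RLE or upper quartile scaling, limma-voom, robust dispersion and legacy = FALSE, every log2 fold change of the 8 genes and Spi1 had the same sign and stayed on the same side of an adjusted p of 0.05. Genes called over the whole table were 33 by edgeR, 5 with at least 10 counts in every library, 146 with no filter and 1867 by DESeq2. DESeq2 called 1 of the 8 genes, Fdft1 (0.68 on the log2 scale, adjusted p = 0.00274), and Spi1 (-2.75, adjusted p = 7.47e-05). Leaving out each mouse, genes called ran from 0 (without control mouse 1) to 1193 (without control mouse 2), members called from 0 to 1, members at an unadjusted p under 0.05 from 1 to 3, and the log2 fold change of Spi1 from -3.17 to -2.39. Without aPU.1KO mouse 2, Idi1, Cyp51 and Insig1 reversed to -0.061, -0.101 and -0.148 (their highest values with a mouse left out were 0.194, 0.239 and 0.219), and the median of the 8 genes reached -0.117, the lowest value; the highest was 0.018. Medians over the lists ran from -0.180 to -0.056 for other cholesterol synthesis enzymes, from -0.180 to -0.043 for other sterol-regulated genes, from 0.056 (without control mouse 3) to 0.147 (without control mouse 2) for sterol sensing, and from 0.026 to 0.169 for isoprenoid branches. For LDL uptake the median ran from -0.454 (without control mouse 2) to -0.299 (without control mouse 1). For fatty acid synthesis it ran from 0.516 (without control mouse 3) to 0.961 (without control mouse 2). Beyond the mouse left out, the cause was not tested. Each of the 8 genes had 285 counts or more in every library, and the number of mice limits the precision of every value.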

Other observations

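Shared sequence could split counts between some of the 8 genes and their copies. The pseudogene Gm13502 is identical to Idi1 over 684 bp and held 173 counts against 12932 for Idi1. The processed pseudogenes of Fdps held between 0 and 2 counts, Gm43738, which shares 1124 bp of exon with Fdps on the same strand, held 6, and Gm6781, at 97.4% identity to Fdft1 over 1249 bp, held 2. Cyp51 shares 166 bp of exon with Akap9 on the opposite strand, and Akap9 had a log2 fold change of 0.03 (SE 0.13) by edgeR. Among the other marker lists, endothelial genes summed to 513.0 to 747.0 CPM in control and 313.0 to 661.0 CPM in aPU.1KO mice, lymphocyte genes to 3.68 to 5.87 and 2.08 to 3.88 CPM, mesothelial genes to 4.64 to 16.8 and 6.58 to 8.54 CPM, and cell division genes to 20.4 to 54.7 and 7.91 to 13.8 CPM. Genes of epididymal epithelium, of which 3 of 5 were at 0 in every library, summed to at most 1.03 CPM.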
